A study of Mus musculus with 12 samples.

Results

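The comparison described here uses RNA-seq counts per gene. It sets mouse small intestine (SI) epithelium kept for 24 h as a monolayer against fresh SI crypts, called SI tissue below. It uses 6 of the 12 libraries of the series, namely 3 SI monolayer and 3 SI tissue libraries. Every gene that passed a filter on low counts was kept, which left 19581 of 55487 genes, of which 23186 had no count in any of the 12 libraries. The study built monolayers from crypts of the small and large intestine (LI) of untreated C57BL/6 mice to measure drug toxicity, and its other 6 libraries hold LI tissue and LI monolayers. SI tissue was taken from 1 mouse per library. The titles of these libraries and the study's RNA sequencing methods name crypts, whereas their other labels and a figure legend of the study name tissue. LI tissue stands for fresh LI crypts in the same way. Any villus or deeper material left in these libraries was not measured. SI monolayers came from jejunal crypts of young adult mice, released with EDTA, strained away from villus material and plated on Matrigel, and each library held pooled wells. They were seeded in a medium with EGF, R-spondin-1, Wnt3a, the GSK3 inhibitor CHIR-99021, the BMP receptor inhibitor LDN-193189 and the kinase inhibitor Y-27632. After that the wells stayed in WENR medium (Wnt3a, EGF, Noggin and R-spondin-1) without any drug. The sources used here do not tie a sex or a culture day to a library, and a difference between groups holds the effects of the material taken, crypt handling, medium, substrate and time together.

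In the intestine, stem and progenitor cells divide in the crypt, kept there by Wnt, R-spondin and EGF signals and held back by BMP. Their daughters move up the villus and become enterocytes, which digest and absorb food, or secretory cells. Paneth cells, the secretory cells at the crypt base, release antimicrobial peptides. Goblet cells make mucus, enteroendocrine cells make hormones and tuft cells sense luminal metabolites and parasites. After injury the epithelium is known to turn on genes of the fetal gut, among them Ly6a, Anxa1 and Clu, together with targets of the YAP coactivator and ligands of the EGF receptor.

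Total counts lay between 61172680 and 67719720 in the SI tissue libraries and between 67068327 and 71963600 in the SI monolayer libraries. Levels are CPM, counts scaled to a common library total after each total was multiplied by edgeR's TMM factor. Values are given in the order of replicates 1, 2 and 3, and no pairing of tissue with monolayers by number was assumed. A gene was called higher or lower where edgeR's quasi-likelihood test gave a Benjamini-Hochberg adjusted p under 0.05 and the fitted change was at least 2-fold. Log2 fold changes are of monolayers over tissue, with n = 3 libraries a group, and carry a standard error after the ± sign. That error came from the fit to all 12 libraries. It thus also holds spread between LI libraries and does not measure the spread of the SI libraries alone. Across all genes tested, log2(CPM + 1) correlated at r = 0.9984 to 0.9986 among the monolayer libraries, 0.9943 to 0.9957 among the tissue libraries and 0.9416 to 0.9488 between the groups. Some marker lists spread widely in tissue. Across the 15 Paneth cell genes used as markers, the summed level was 5898, 11400.0 and 29650.0 CPM in tissue and 9148, 8760.0 and 9498 CPM in monolayers. Tissue library 3 thus held about 5 times the Paneth cell signal of tissue library 1, and the monolayers lay between them. The summed level of the 18 mature enterocyte genes ran the other way among the tissue libraries, at 30780.0, 27980.0 and 20890.0 CPM in tissue and 10690.0, 10420.0 and 10570.0 CPM in monolayers. For 9 MHC class II genes it was 1022, 3331 and 1238 CPM in tissue and 213, 205 and 208 CPM in monolayers, with tissue library 2 far above the others.

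Markers of lymphocytes, plasma cells and red cells were lower in monolayers. All 16 intraepithelial and T lymphocyte genes were lower, against 16.4% of the 19581 genes tested, with a median log2 fold change of -4.01 and a summed level of 888, 877 and 623 CPM in tissue and 33.7, 32.1 and 31.1 CPM in monolayers. Gzma, a protease of cytotoxic lymphocytes, was at 350.0, 338 and 265 CPM in tissue and 6.94, 6.41 and 6.38 CPM in monolayers. All 11 B and plasma cell genes were lower as well (median -6.76), and their summed level was 187, 646 and 298 CPM in tissue and 3.29, 2.71 and 1.8 CPM in monolayers. The constant chains Igha and Igkc and the joining chain Jchain were the most abundant of these, and tissue library 2 was the highest for each. Mzb1 had no count in the monolayers and was at least 14.2-fold lower, taking 3 counts over the 3 libraries as the floor. Of counts from 1 to 20, between 73.4% and 77.4% were even in each of the 12 libraries, so both mates of a fragment may have been counted. A floor of 6 counts, chosen after seeing the data, lowers the bound to 7.12-fold. With that gene at either bound the median of the B and plasma cell list was -4.90. Of 6 erythroid genes tested, 5 were lower, with a summed level of 19.2, 18.6 and 13.8 CPM in tissue and 0.321, 0.299 and 0.167 CPM in monolayers. In bulk RNA, fewer cells of a type and less RNA per cell cannot be told apart.

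Markers of the stroma were low in both groups. Fibroblast genes summed to 79.1, 67.6 and 61.1 CPM in tissue and 26.8, 40.7 and 41.8 CPM in monolayers, smooth muscle genes to 118, 126 and 101 CPM in tissue and 51.7, 50.2 and 50.8 CPM in monolayers and endothelial genes to 10.8, 11.8 and 10.3 CPM in tissue and 9.03, 7.71 and 9.35 CPM in monolayers. Lower were 5 of 13, 1 of 8 and 5 of 10 tested genes, against 16.4% of all genes, and the endothelial gene Tie1 was higher (2.10). Fn1, a matrix glycoprotein of fibroblasts and other cells, was lower at 26.2, 28.1 and 33.7 CPM in tissue and 2.36, 6.91 and 6.49 CPM in monolayers. The smooth muscle sum was almost all Mylk, the myosin light chain kinase that epithelium also expresses, at 116, 124 and 98.9 CPM in tissue and 50.5, 48.7 and 49.3 CPM in monolayers. The enteric neuron and glia sum was 29.3, 30.8 and 26.7 CPM in tissue and 29, 24.8 and 24 CPM in monolayers. Of its 9 tested genes none was called by edgeR or by DESeq2, and 3 had an unadjusted p under 0.05 in edgeR's test, and 1 was higher without tissue library 3. The macrophage and dendritic cell list was split, and its sum was higher in every monolayer library, at 46.2, 60.6 and 96.5 CPM in tissue and 103, 97.8 and 101 CPM in monolayers. Itgax (log2 fold change -4.02) and Tyrobp (-4.56) were lower with 6 others, while Mrc1, the mannose receptor, rose, at 0.735, 0.725 and 2.17 CPM in tissue and 53.6, 54 and 53.7 CPM in monolayers. Mrc1 and Lyz2, a lysozyme that was not called (-0.12), made up most of the sum in monolayers, whereas the macrophage genes Adgre1 and C1qa lay at or below 0.279 CPM there. Cd68, a lysosomal protein, was the other gene of that list to rise (1.63). Several of these marker lists moved with the culture, whereas in the main analysis smooth muscle had 1 of 8 genes called and enteric neuron and glia none. The part of these cell types in the changes described below was not tested.

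**Figure D1:**
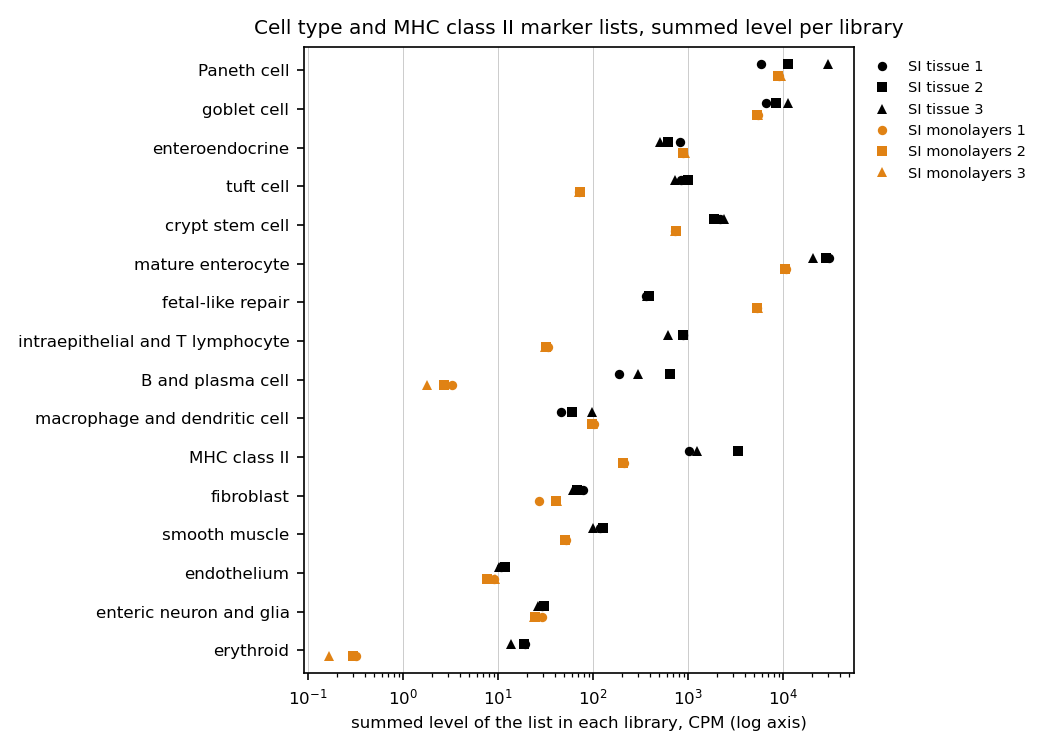
Summed level of 16 marker lists in each of the 6 SI libraries, in CPM on a log axis, with black points for tissue, orange points for monolayers and a shape for each replicate. Lymphocyte, B cell, erythroid, tuft cell and MHC class II lists lay far lower in monolayers and the fetal-like repair list far higher, while Paneth cell genes in tissue spread around the monolayers.

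Of the 19581 genes tested, 5110 (26.1%) were called, 1902 (9.71%) higher and 3208 (16.4%) lower in monolayers. Rises made up 37.2% of the calls. When trends of the counts with GC content and gene length were removed in each library, 2547 genes were higher and 2707 lower, so that rises made up 48.5%, and log2 fold changes moved by a median of 0.17 over all genes. No called gene changed direction there. The median log2 fold change of all tested genes was -0.05, and the 3 monolayer libraries did not overlap the 3 tissue libraries for 66.4% of genes. A lack of overlap given for single genes or lists is to be read against that share. Falls were also deeper than rises, since 1065 genes fell and 378 rose by at least 8-fold. Among genes with a mean of at least 10 CPM 887 were higher and 900 lower, and 721 and 1049 when those genes alone were fitted. The gene lists below are read against the shares of 9.71% higher and 16.4% lower over all genes.

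**Figure D2:**
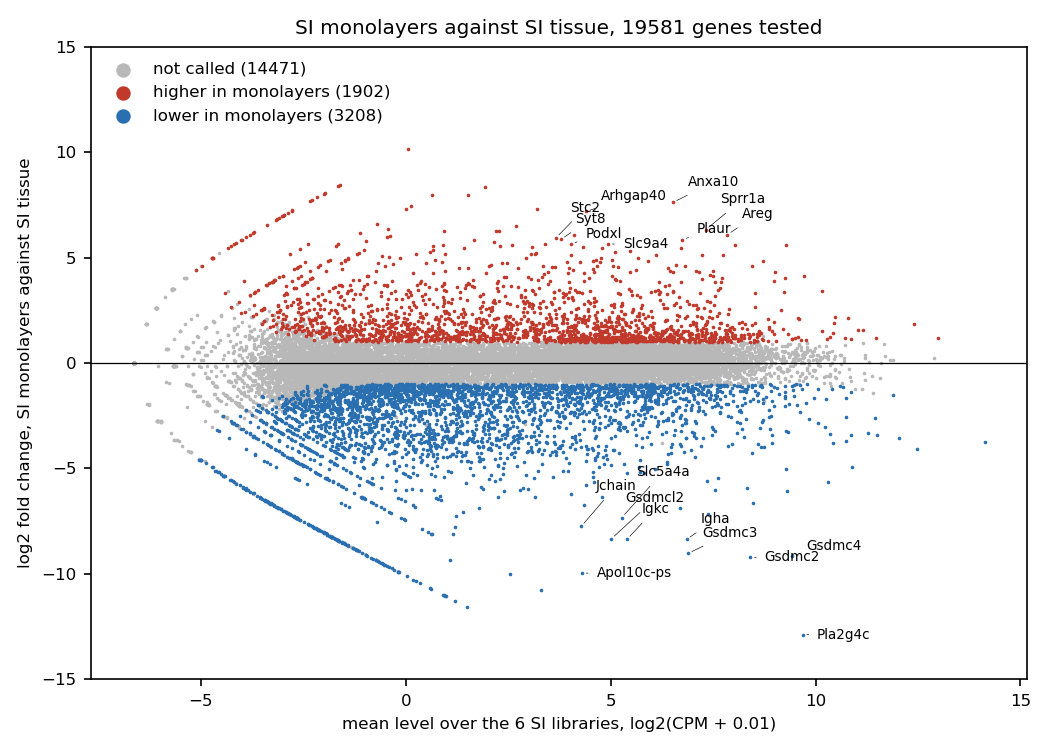
Log2 fold change in SI monolayers against SI tissue (y axis) by mean level over the 6 SI libraries in log2(CPM + 0.01) (x axis) for 19581 genes, with called genes in red or blue and genes among the 10 largest rises and falls at 10 CPM or more named. Among the named genes the falls, led by Pla2g4c at -12.89, reached further from 0 than the rises, led by Anxa10 at 7.62, and the diagonal rows of points at the left are genes with no or few counts in a group.

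The 10 largest rises among genes with a mean of at least 10 CPM were genes hardly present in tissue. Anxa10, an annexin of gastric epithelium (chr8:62057042-62123150, minus strand, GRCm38), was at 0.875, 1.02 and 0.879 CPM in tissue and 185, 184 and 179 CPM in monolayers, a log2 fold change of 7.62 ± 0.29 (adjusted p = 9.23e-09). Areg, a ligand of the EGF receptor, was at 7.29, 7.28 and 5.39 CPM in tissue and 452, 444 and 465 CPM in monolayers (6.09 ± 0.13, adjusted p = 3.82e-13). Sprr1a, a protein of the cornified envelope of squamous cells, was at 4.48, 4.1 and 3.22 CPM in tissue and 312, 301 and 330.3 CPM in monolayers (6.33 ± 0.28). The 10 largest rises and the 10 largest falls were picked for large changes without overlap between the groups. Their agreement across libraries follows from that choice. Plaur, the urokinase receptor, rose by 5.86 ± 0.10. Others of this group were Arhgap40 (7.20 ± 0.20), Stc2 (5.94 ± 0.19), a secreted glycoprotein, Syt8 (5.87 ± 0.24), Podxl (5.66 ± 0.14), an apical sialomucin, and the sodium-proton exchanger Slc9a4 (5.65 ± 0.22).

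The largest falls came from a few families. Pla2g4c, a cytosolic phospholipase (chr7:13324655-13360672, plus strand), was at 1156, 2096 and 1684 CPM in tissue and 0.204, 0.299 and 0.139 CPM in monolayers, a log2 fold change of -12.89 ± 1.12 (adjusted p = 1e-05). Gsdmc2, Gsdmc3, Gsdmc4 and the pseudogene Gsdmcl2, which lie side by side on chromosome 15, fell by more than 8 on the log2 scale. Gasdermins are pore-forming proteins of cell death, and the C members are known to rise in the gut during worm infection. Gsdmc4 was at 929, 1668 and 1530.2 CPM in tissue and 3.54, 3.38 and 0.195 CPM in monolayers (-9.18 ± 0.92) and Gsdmc2 at 435, 813 and 783 CPM in tissue and 1.59, 1.6 and 0.223 CPM in monolayers (-9.22 ± 0.63). In monolayers these traces were lower in library 3 than in libraries 1 and 2, and all 3 lay far below every tissue library. The copies are near-identical, so the counts of each member of the family are uncertain. Gsdmc itself had no count in monolayers and was at least 272-fold lower, or 136-fold with a floor of 6 counts. Apol10c-ps, a pseudogene of the apolipoprotein L family, had a log2 fold change of -9.97 ± 0.83. Igha, Igkc and Jchain stood among the 10 as well, at -8.37 ± 1.14, -8.37 ± 1.17 and -7.75 ± 1.22, and so did Slc5a4a, a sodium-linked sugar sensor and transporter of the SGLT family, at -7.33 ± 0.63.

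**Figure D3:**
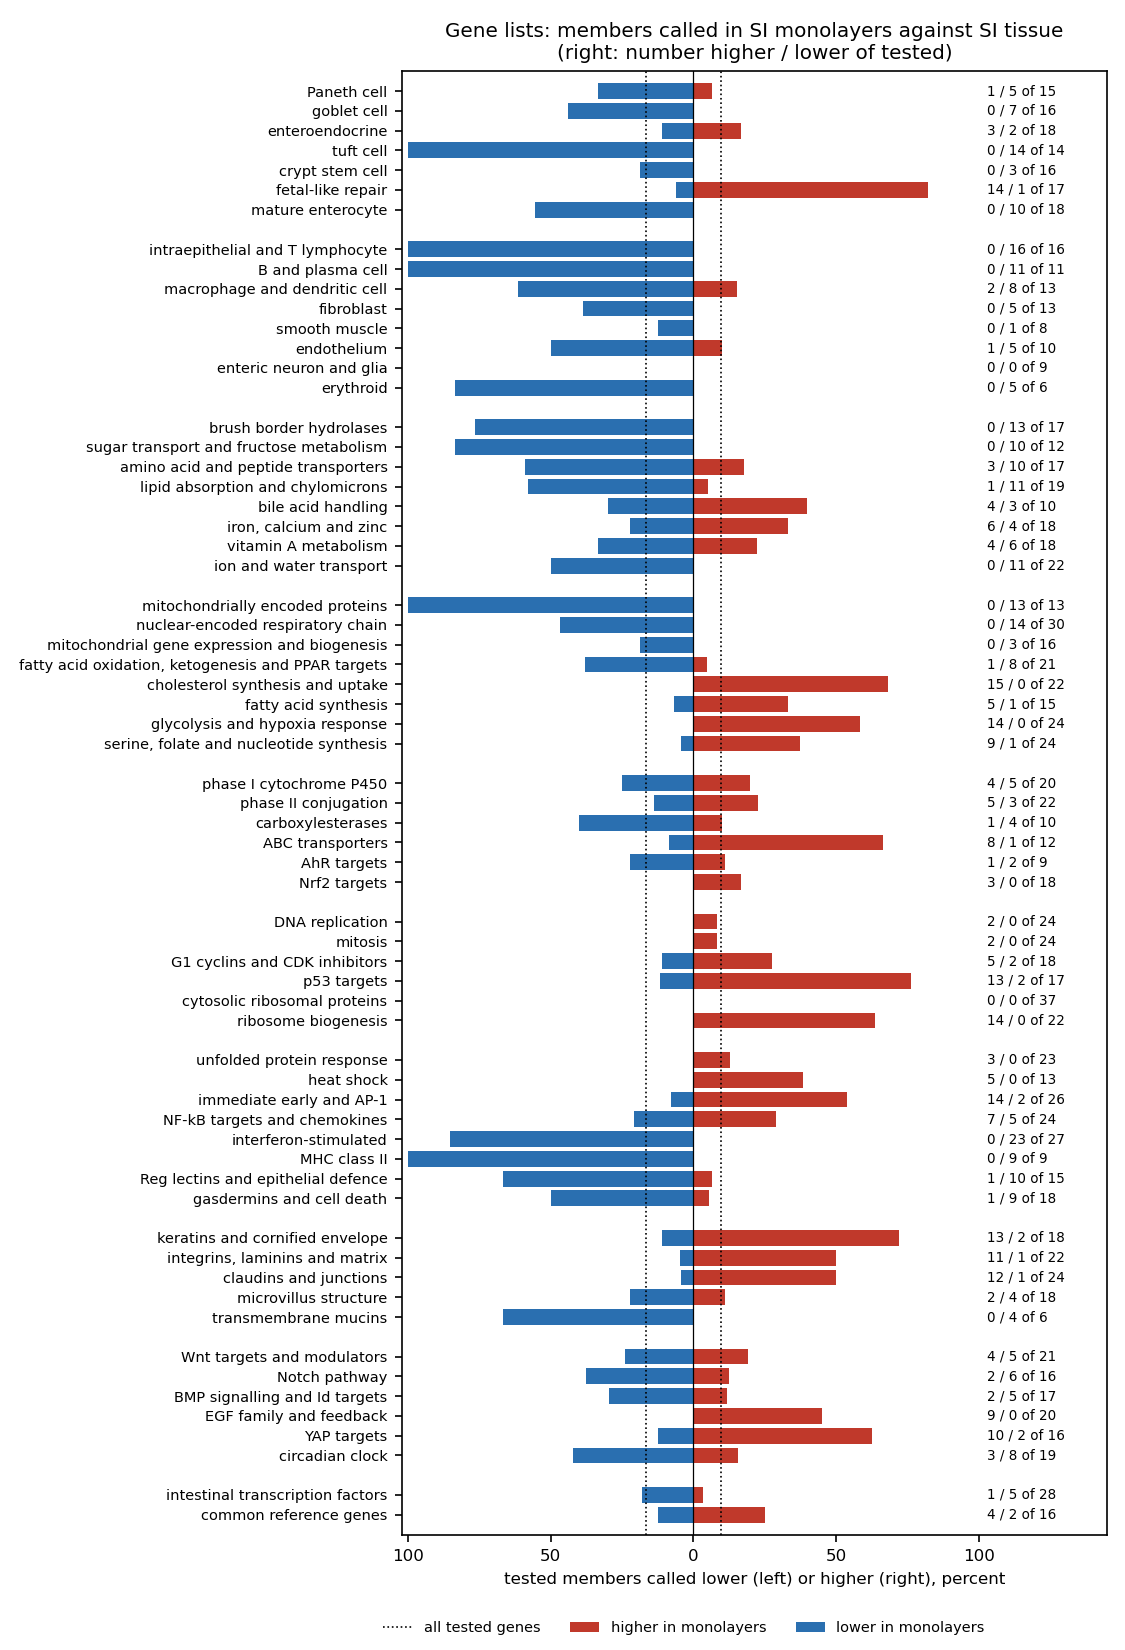
Share of the tested members of 64 gene lists that were called higher (right, red) or lower (left, blue) in SI monolayers, in percent, with dotted lines at 9.71% and 16.4% for all tested genes and the counts printed at the right. Tuft cell, lymphocyte, B cell, mitochondrially encoded and MHC class II lists were wholly lower, and fetal-like repair, p53 and keratin lists had the highest shares of rises.

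The secretory lineages did not move as a block. All 14 tuft cell genes were lower (median -3.89). Dclk1, the kinase used to mark these cells, was at 67.1, 87.9 and 62.6 CPM in tissue and 8.88, 8.72 and 8.6 CPM in monolayers, and Pou2f3, the transcription factor they need, was at 16.4, 20.3 and 16.6 CPM in tissue and 2.17, 1.56 and 2.03 CPM in monolayers. Trpm5, the cation channel of taste and tuft cells, was at 120.5, 132 and 101 CPM in tissue and 7.45, 8.57 and 8.5 CPM in monolayers. No monolayer library reached any tissue library for a tuft cell gene, and 66.4% of all genes tested had no overlap in either direction. Of 16 goblet cell genes 7 were lower and none higher. The mucin Muc2 was at 246, 312 and 346 CPM in tissue and 78.7, 72.9 and 68.7 CPM in monolayers (-2.04 ± 0.18, adjusted p = 4.8e-06) and the resistin-like Retnlb fell furthest (-4.93 ± 0.64), whereas Fcgbp, with the highest counts, was not called (-0.46). Without tissue library 3, in which goblet cell genes were highest, 4 of the 16 were lower.

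Paneth cell genes were called 1 higher and 5 lower of 15. Lyz1, the Paneth cell lysozyme, was at 1254, 2595 and 5392 CPM in tissue and 3084, 2992 and 3188 CPM in monolayers and did not pass the test (0.00 ± 0.54). The monolayer libraries lay inside the wide range of the tissue libraries. Ang4, an antimicrobial ribonuclease, was at 975, 1738 and 4464 CPM in tissue and 234, 228 and 234 CPM in monolayers (-3.37 ± 0.59) and Mptx2, a mucosal pentraxin, at 228, 499 and 1428 CPM in tissue and 49.3, 48.6 and 50 CPM in monolayers (-3.87 ± 0.62), both below every tissue library. Nupr1, a stress-induced nuclear protein, was the gene of this list that rose (2.19). The counts depended on single tissue libraries. Without library 1 the list had 1 higher and 8 lower, and without library 3 it had 3 higher and 4 lower, with the alpha-defensins Defa21 and Defa22 then called higher. Defensins are near-identical copies, so their counts are uncertain.

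Among 18 enteroendocrine genes 3 were higher and 2 lower (median -0.22), not far from the shares over all genes. Gcg, the precursor of glucagon-like peptides, was at 39.8, 31.9 and 33.3 CPM in tissue and 167, 162 and 171 CPM in monolayers (2.25 ± 0.092), and the peptide hormone genes Cck (1.42) and Tac1 (1.70) rose with it. Sct, the secretin gene, was at 47.1, 39.6 and 32.9 CPM in tissue and 10.1, 9.61 and 9.6 CPM in monolayers (-2.03 ± 0.16), and Nts, neurotensin, was lower too (-1.23), though not when tissue library 1 or 2 or any monolayer library was left out. Groups did not overlap for any of these 5, nor for 66.4% of all genes tested. Chga, the chromogranin used to stain these cells, was at 117, 85.2 and 68.1 CPM in tissue and 78.5, 79.8 and 86.4 CPM in monolayers and was not called (-0.14, adjusted p = 0.493).

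Of 16 crypt stem cell genes 3 were lower and none higher, a share of falls near the 16.4% of all genes. Without the 2-fold limit 8 were lower and 3 higher, against 5995 lower and 5679 higher of all 19581 genes. Their summed level was 2155, 1894 and 2397 CPM in tissue and 733, 742 and 723 CPM in monolayers, lower in every monolayer library, and 2.93 times higher in tissue on average. Olfm4, a secreted glycoprotein of crypt base cells, had the largest fall and most of the tissue sum, at 1271, 1064 and 1421 CPM in tissue and 20.1, 17.8 and 17.4 CPM in monolayers (-6.09 ± 1.19, adjusted p = 0.00204). Its level in monolayers was under 25 CPM in each library against more than 1000 CPM in each tissue library. Among the LI tissue libraries of the same fit Olfm4 spread widely, at 2.23 ± 3.66 CPM (mean ± SD, n = 3). Axin2 (-1.18), a Wnt target, and Aqp4 (-1.99), a water channel, were lower as well. Lgr5, the R-spondin receptor that marks stem cells, was at 11.8, 7.7 and 10.1 CPM in tissue and 10.9, 11.3 and 9.89 CPM in monolayers (0.12 ± 0.17), and Lrig1, a restraint on EGF receptors, at 91, 98.4 and 102 CPM in tissue and 90.2, 98.3 and 98 CPM in monolayers (-0.02 ± 0.055). Neither passed the threshold, and the groups overlapped for both.

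Against this, 14 of 17 fetal-like repair genes rose and 1 fell, with a median of 4.28. Their summed level was 364, 387 and 366 CPM in tissue and 5285, 5278 and 5472 CPM in monolayers, 14.4 times higher in monolayers. Ly6a, also called Sca-1, was at 17.3, 20.9 and 11.8 CPM in tissue and 341, 333 and 361 CPM in monolayers. Anxa1, an annexin, was at 22, 20.7 and 10.7 CPM in tissue and 282, 280.1 and 282 CPM in monolayers, and Krt7, a simple keratin with the highest counts of the list, at 175, 196 and 211 CPM in tissue and 2063, 2064 and 2137 CPM in monolayers. All 14 lay apart from tissue in every library, as did 66.4% of all genes tested. The phosphoprotein Spp1 was the member that fell (-2.62). YAP targets shared Ccn1 and Ccn2 with that list, and 10 of 16 rose and 2 fell (median 1.85). F3, tissue factor, was at 12.7, 10.2 and 8.96 CPM in tissue and 515, 512 and 516 CPM in monolayers (5.60 ± 0.13), the cytoskeletal protein Ajuba rose by 4.53, and Nt5e, an ectonucleotidase, fell (-3.24).

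Of 20 EGF family genes, mostly ligands, receptors and feedback inhibitors, 9 were higher and none lower (median 0.65), with 1 lower without tissue library 2 or monolayer library 1. After Areg, the ligand Ereg was at 1.73, 3.04 and 1.58 CPM in tissue and 88.6, 88 and 81.4 CPM in monolayers (5.34 ± 0.23) and Btc at 3.57, 3.69 and 5.33 CPM in tissue and 85.5, 85.5 and 82.8 CPM in monolayers (4.33 ± 0.13). Hbegf (2.64) and Tgfa (1.22) were higher as well. Egfr, their receptor, rose as well, at 18.8, 18 and 19.2 CPM in tissue and 71.4, 71.1 and 70.8 CPM in monolayers (1.93 ± 0.063, adjusted p = 6.67e-13). Errfi1 (3.11), Dusp4 (2.13) and Spry4 (2.31), which restrain the pathway, rose too. Immediate early and AP-1 genes were 14 higher and 2 lower of 26. The AP-1 subunit Fosl1 was at 0.035, 0.201 and 0.102 CPM in tissue and 9, 8.87 and 9.35 CPM in monolayers (6.28 ± 0.28), and Egr1 at 3.88, 10.9 and 8.33 CPM in tissue and 81.5, 81.6 and 84.8 CPM in monolayers. The Krüppel-like factor Klf4, abundant in differentiated cells, was lower (-1.73).

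**Figure D4:**
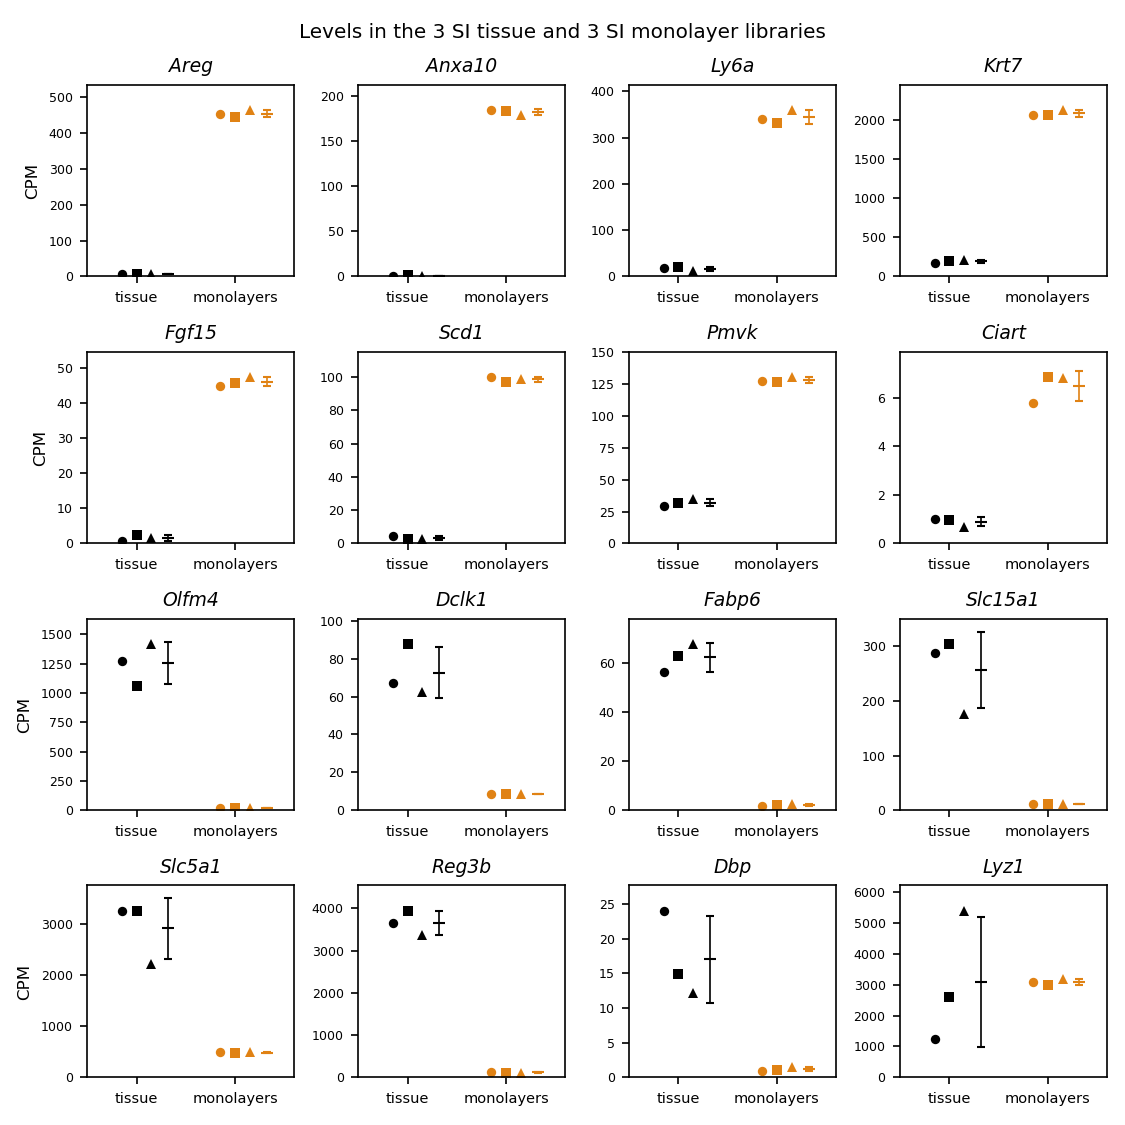
Levels of 16 genes in CPM (y axis from 0) in the 3 SI tissue and 3 SI monolayer libraries, with a shape for each replicate and bars for mean and SD (n = 3). The first 8 genes lay above tissue in every monolayer library, the next 7 lay below, and Lyz1 in tissue ran from 1254 to 5392 CPM around the monolayers.

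Structural genes moved with these lists. Among 18 keratins and cornified envelope genes 13 were higher and 2 lower (median 2.07), and 1 was lower without tissue library 2 or any monolayer library. Krt8, an abundant intestinal keratin, was at 4769.9, 5162 and 4968 CPM in tissue and 11163, 11175 and 11447 CPM in monolayers (1.18 ± 0.045). Krt6a, a keratin of wounded skin that was near 0 in tissue, was at 0.175, 0.0308 and 0.0293 CPM in tissue and 2.39, 3.23 and 3.13 CPM in monolayers. For laminins, integrins and matrix the count was 11 higher and 1 lower of 22. Lamb3, a laminin chain of epithelial basement membrane, was at 14.5, 14.4 and 18.4 CPM in tissue and 160.2, 165 and 174 CPM in monolayers (3.40 ± 0.085). Hspg2, perlecan, was the gene that fell (-1.72). Of 24 claudin and junction genes 12 were higher and 1 lower. The tight junction protein Cldn4 was at 57.4, 64.3 and 91.1 CPM in tissue and 1129, 1142 and 1170.1 CPM in monolayers (4.01 ± 0.25). The scaffold Tjp1, also known as ZO-1 (1.68 ± 0.055), and E-cadherin, Cdh1 (1.13 ± 0.063), rose in every library. Cldn15, the claudin that passes sodium in the small intestine, fell (-1.16, and -0.87 with GC and length trends removed).

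The enterocyte's absorptive programme was lower. Of 18 mature enterocyte genes 10 were lower and none higher, and of 17 brush border hydrolases 13 were lower and none higher (median -2.63). Anpep, aminopeptidase N, was at 5510.0, 5417 and 3439 CPM in tissue and 761, 792 and 775 CPM in monolayers (-2.63 ± 0.65). Lct, lactase, was at 863, 672 and 358 CPM in tissue and 9.8, 10.3 and 10.9 CPM in monolayers (-5.93 ± 0.87), and the protease Tmprss15, enteropeptidase, fell furthest (-6.88 ± 0.55). No monolayer library overlapped tissue for them, but tissue library 3, the one with most Paneth cell signal, was the lowest of its group for Anpep and Lct. Of 18 microvillus structure genes 2 were higher and 4 lower, near the shares over all genes, and 4 each way with GC and length trends removed. Vil1, villin, was at 2617, 2653 and 1868 CPM in tissue and 1318, 1323 and 1367 CPM in monolayers and missed the 2-fold limit (-0.83 ± 0.11, adjusted p = 1.93e-05), while Espn, espin, fell (-1.92 ± 0.092). Of 6 transmembrane mucins tested 4 were lower, led by Muc3a (-4.33).

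Transporters of sugars and amino acids fell with the hydrolases. Of 12 genes of sugar transport and fructose metabolism 10 were lower and none higher (median -2.31). The sodium-glucose cotransporter Slc5a1 was at 3259, 3262 and 2219 CPM in tissue and 497, 471 and 492 CPM in monolayers (-2.58 ± 0.17) and the fructose transporter Slc2a5 at 284, 248 and 182 CPM in tissue and 21.4, 20.6 and 22 CPM in monolayers (-3.48 ± 0.28). The amino acid and peptide transporters were 10 lower and 3 higher of 17. Slc15a1, the peptide transporter PEPT1, was at 287, 305 and 177 CPM in tissue and 11.8, 11 and 11.9 CPM in monolayers (-4.47 ± 0.28), and the glutamate transporter Slc1a1 fell furthest (-4.77 ± 0.16). The 3 that rose were Slc7a11 (4.96 ± 0.19), the cystine importer, Slc7a5 (2.59 ± 0.18), a leucine transporter of growing cells, and Slc38a2 (1.97 ± 0.064), a glutamine and alanine transporter.

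Of 19 lipid absorption genes 11 were lower and 1 higher (median -1.35). Fabp1, a fatty acid binding protein, was at 1516, 1118 and 844 CPM in tissue and 121, 119.6 and 117 CPM in monolayers (-3.28 ± 0.76), Apoa4, an apolipoprotein of chylomicrons, at 1115, 832 and 807 CPM in tissue and 68.5, 64.4 and 66.9 CPM in monolayers (-3.78 ± 0.76), and the fatty acid receptor Cd36 fell (-5.77 ± 0.53). Scarb1, the lipoprotein receptor SR-BI, was the gene that rose (2.07). Ion and water transport had 11 lower and none higher of 22, with the carbonic anhydrase Car4 at 619, 824 and 674 CPM in tissue and 8.65, 7.28 and 5.61 CPM in monolayers (-6.62 ± 0.21). The vitamin A list was split, 4 higher and 6 lower of 18. Lrat (-4.33) and Rbp2 (-3.05), which store and carry retinol, fell, and the retinoic acid synthesizing enzyme Aldh1a3 rose (2.86).

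Bile acid and metal handling went both ways. Fgf15, the hormone that the ileum secretes in response to bile acids, was at 0.822, 2.53 and 1.41 CPM in tissue and 44.9, 45.7 and 47.4 CPM in monolayers (4.84 ± 0.26), while Fabp6, the ileal bile acid binding protein, was at 56.3, 63 and 67.9 CPM in tissue and 1.75, 2.25 and 2.45 CPM in monolayers (-4.85 ± 0.25). Slc10a2, the apical bile acid importer, was at 16.3, 16 and 22.6 CPM in tissue and 94.5, 93.8 and 88.2 CPM in monolayers (2.33 ± 0.56), and the basolateral exporter subunit Slc51b fell (-3.05 ± 0.12). Each of these 4 separated the groups without overlap, as did 66.4% of all genes tested. The list as a whole was 4 higher and 3 lower of 10. Of 18 genes for iron, calcium and zinc, 6 rose and 4 fell. Cybrd1, the duodenal ferric reductase, was at 0.805, 1.45 and 3.22 CPM in tissue and 50.1, 50.9 and 54 CPM in monolayers (4.80 ± 0.46), the metallothionein Mt1 rose (1.97), and the zinc and manganese exporter Slc30a10 fell (-1.72).

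Transcripts encoded by mitochondrial DNA were lower in monolayers. The share of all counts in the 37 mitochondrial genes was 9.16%, 5.92% and 4.56% in tissue and 0.559%, 0.558% and 0.472% in monolayers. The means were 6.54% ± 2.36 and 0.53% ± 0.0499 (SD, n = 3), a ratio of 12.3, and every tissue library lay above every monolayer library. An exact two-sided permutation test over the 20 relabellings gave p = 0.1, the smallest value that 3 against 3 allows. All 13 mitochondrially encoded protein genes were called lower (median -3.72), such as mt-Co1, a cytochrome oxidase subunit, at -3.77 ± 0.28. Of 30 nuclear respiratory chain genes 14 were lower and none higher (median -0.98), but 4 were lower once GC and length trends were removed, and 10 to 16 with 1 SI library left out. Ndufb8, a complex I subunit, was at 217, 194 and 223 CPM in tissue and 82.1, 81.5 and 81.2 CPM in monolayers (-1.37 ± 0.066). Of 16 genes of mitochondrial gene expression and biogenesis 3 were lower and none higher (median -0.26), a share near that of all genes. Ppargc1a, a regulator of this set, had its largest fall, at 52.8, 60.4 and 42 CPM in tissue and 6.13, 6.87 and 6.1 CPM in monolayers (-3.02 ± 0.13). Fatty acid oxidation, ketogenesis and PPAR target genes were 8 lower and 1 higher of 21, and 5 lower with GC and length trends removed. Angptl4, a secreted lipase inhibitor, rose (3.43), and Cpt1a, which admits fatty acids to mitochondria, fell (-1.52).

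Of 24 glycolysis and hypoxia response genes 14 were higher and none lower (median 1.19). The glucose transporter Slc2a1 was at 33.9, 41.2 and 37.9 CPM in tissue and 287, 289 and 294 CPM in monolayers (2.94 ± 0.077), Hk2, hexokinase, at 27.9, 32.5 and 28.7 CPM in tissue and 99, 102 and 95.8 CPM in monolayers (1.74 ± 0.12), and Gapdh at 1873, 1748 and 1604 CPM in tissue and 3914, 3911 and 3975 CPM in monolayers (1.18 ± 0.058). All 3 were higher in every monolayer library, and Ldha, lactate dehydrogenase, was not called (0.33). The serine, folate and nucleotide list had 9 higher and 1 lower of 24. The serine synthesis enzymes Psat1 (3.82 ± 0.13), Phgdh (2.93 ± 0.087) and Psph (2.86 ± 0.082) led it, and the intestinal folate transporter Slc46a1 fell (-2.22 ± 0.23), at 67.4, 39.9 and 42.9 CPM in tissue and 10, 10.9 and 11.3 CPM in monolayers. Slc19a1, the reduced folate carrier, was at 27.4, 23.7 and 32.1 CPM in tissue and 37.2, 42.3 and 39 CPM in monolayers and missed the 2-fold limit (0.51 ± 0.10, adjusted p = 0.000458). Scd1 and Scd2, which desaturate fatty acids, rose by 4.97 ± 0.25 and 4.15 ± 0.22, among 5 higher and 1 lower of 15 fatty acid synthesis genes. Acacb, the acetyl-CoA carboxylase of mitochondria, was the gene that fell (-4.46).

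Cholesterol synthesis and uptake had 15 of 22 genes higher and none lower (median 1.17). Cells low in sterol are known to turn on this pathway through SREBP-2, whose partner NF-Y binds CCAAT boxes. Pmvk, phosphomevalonate kinase, was at 29.4, 31.4 and 34.9 CPM in tissue and 127, 126 and 131 CPM in monolayers (2.01 ± 0.082), and Hmgcs1, HMG-CoA synthase, at 187, 193 and 229 CPM in tissue and 467, 467 and 437 CPM in monolayers (1.17 ± 0.13). Groups were apart for both, with the narrower gap for Hmgcs1. Idi1, an isomerase of the same pathway, stood just past the limit, and under it without tissue library 1 (0.93) or 2 (0.95). The 250 bases before the gene start, from RefSeq promoters on GRCm38.p6, were searched on both strands. The letters CCAAT were present in all 14 members with a promoter there, against 37.5% of 27025 genes. TCACCCCAC, a sterol element, was present in 1 of the 14 and in 0.555% of all genes, without overlap with a CCAAT match. To show both kinds of match, 1 member is printed for each in lower case with only that motif in capitals, ATTGG being CCAAT on the other strand. The stretch of Hmgcs1 lies at chr13:119690174-119690262, plus strand, with its match starting 137 bases before the gene start, and that of Idi1 at chr13:8885521-8885605, plus strand, with matches from 45 and 14 bases before it.
Hmgcs1 sterol element: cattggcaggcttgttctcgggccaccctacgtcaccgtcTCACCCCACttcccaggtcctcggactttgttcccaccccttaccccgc
Idi1 CCAAT boxes: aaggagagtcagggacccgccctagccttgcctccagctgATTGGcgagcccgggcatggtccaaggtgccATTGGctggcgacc

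Genes of drug handling changed in both directions. Among 20 cytochrome P450 and related genes 4 were higher and 5 lower. Cyp2c29 was at 37.2, 16.8 and 5.92 CPM in tissue and 369.6, 333 and 326 CPM in monolayers (4.11 ± 0.56), and Cyp1a1, a target of the aryl hydrocarbon receptor, at 4.13, 12.1 and 5.68 CPM in tissue and 1.23, 0.76 and 0.697 CPM in monolayers (-3.03 ± 0.40). The P450 genes measured in the study, Cyp3a11 (0.54 ± 0.30, adjusted p = 0.152) and Cyp3a13 (0.57 ± 0.084, adjusted p = 2.79e-05), stayed under the 2-fold limit, and Cyp3a41a did not pass the count filter. Of 22 conjugating enzymes 5 were higher and 3 lower, and the 5 were all glutathione S-transferases. Gsta4 was at 33.2, 18.4 and 24 CPM in tissue and 1228, 1235 and 1212 CPM in monolayers (5.60 ± 0.22) and Gstm1 at 84.5, 67.7 and 46.6 CPM in tissue and 646, 658 and 688 CPM in monolayers (3.33 ± 0.21), while the sulfotransferase Sult1b1 fell (-1.65 ± 0.092). Carboxylesterases were 1 higher and 4 lower of 10, with Ces2a at 2.09 ± 0.17 and Ces2e at -1.45 ± 0.11. Members of these families share sequence, so reads may be split between copies. Of 12 ABC transporters 8 were higher and 1 lower, with the glutathione conjugate exporter Abcc1 at 11.7, 14.6 and 14 CPM in tissue and 79.4, 79.3 and 78.8 CPM in monolayers (2.56 ± 0.073). Abcb1a, P-glycoprotein, rose by 1.14 ± 0.18, and by 0.92, short of the limit, without tissue library 3. Targets of Nrf2, the oxidative stress factor, had 3 of 18 higher and none lower, namely Slc7a11, the heme oxygenase Hmox1 (3.09) and the glutathione synthesis enzyme Gclc (1.81). Of 9 AhR targets 2 were lower and 1 higher, Ido1 (1.11 ± 0.41), which lost its call without any single library other than tissue library 2.

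Mki67, the proliferation antigen, was at 146, 150.3 and 147 CPM in tissue and 136, 139 and 134 CPM in monolayers, with no call (-0.12 ± 0.082, adjusted p = 0.225). DNA replication and mitosis lists each had 2 of 24 genes higher and none lower, a share of rises below the 9.71% of all genes, with medians of 0.59 and 0.39. Mcm3, a subunit of the replicative helicase, was at 55.4, 54.5 and 49.9 CPM in tissue and 125, 125 and 127 CPM in monolayers (1.24 ± 0.086). Of the G1 cyclins and CDK inhibitors, 5 were higher and 2 lower of 18, and Myc and the cyclin Ccnd2 rose by 2.02 ± 0.071 and 1.84 ± 0.11. Ribosome biogenesis had 14 of 22 genes higher and none lower (median 1.13), such as Ncl, nucleolin, at 459.7, 429 and 442 CPM in tissue and 1024, 1025 and 971 CPM in monolayers (1.18 ± 0.049). None of 37 cytosolic ribosomal protein genes was called by edgeR or by DESeq2, although 30 had an unadjusted p under 0.05 in edgeR's test with changes of less than 2-fold (median 0.27). With GC and length trends removed, 4 DNA replication genes were higher, and the G1 list had 8 higher and none lower.

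Of 17 p53 targets 13 were higher and 2 lower (median 1.58). Phlda3, an inhibitor of Akt, was at 2.24, 1.82 and 1.85 CPM in tissue and 47.2, 50.4 and 47.9 CPM in monolayers (4.63 ± 0.14), Gdf15, a stress hormone, at 3.13, 2.96 and 2.62 CPM in tissue and 25, 26.5 and 25.8 CPM in monolayers (3.15 ± 0.16), and Mdm2, which targets p53 for degradation, at 37.3, 38.4 and 38 CPM in tissue and 80.3, 77.3 and 78.4 CPM in monolayers (1.05 ± 0.05). The groups did not overlap for these, and the gap was smallest for Mdm2. Cdkn1a, the cell cycle inhibitor p21, stood at the 2-fold limit (adjusted p = 1.57e-09) and was called in 10 of 18 alternative settings. Sesn1, a brake on mTORC1, and the death receptor Fas (-1.83) fell. In the unfolded protein response list 3 of 23 genes were higher (median 0.07), a share near the 9.71% of all genes. The 3 were Chac1 (4.40), Asns (2.38) and Trib3 (2.12), genes known to respond to amino acid shortage through ATF4. The chaperone Hspa5 was not called (0.39). Heat shock genes were 5 higher and none lower of 13, with Hspa1b, which has a near-identical copy, at 17.4, 10.3 and 4.82 CPM in tissue and 92.9, 97.4 and 92.4 CPM in monolayers (3.13 ± 0.53).

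Interferon-stimulated genes were lower as a group, 23 of 27 with none higher (median -1.66). Irf1, a transcription factor of this response, was at 152, 221 and 151 CPM in tissue and 54.7, 54.6 and 57.1 CPM in monolayers (-1.66 ± 0.14), and the immunoproteasome subunit Psmb9 at 112, 184 and 117 CPM in tissue and 13.6, 13.7 and 12.9 CPM in monolayers (-3.36 ± 0.20). Isg15, a ubiquitin-like protein, was at 12.7, 14.5 and 11.3 CPM in tissue and 4.45, 3.78 and 3.78 CPM in monolayers (-1.68 ± 0.32). No monolayer library reached a tissue library for them, and tissue library 2 was the highest for each. Without that library 20 of the 27 were lower. The MHC class II genes were all lower, 9 of 9 (median -3.55). Their shared activator Ciita was at 14, 57.9 and 18.1 CPM in tissue and 1.75, 2.04 and 1.84 CPM in monolayers (adjusted p = 0.000293), and Cd74, the invariant chain, at 403, 1256 and 496 CPM in tissue and 105, 102 and 108 CPM in monolayers (-2.78 ± 0.42). H2-Ob, which B cells and dendritic cells express, had no count in monolayers and was at least 117-fold lower, or 58.5-fold with a floor of 6 counts. Without tissue library 2 all 9 were still lower, with a median of -2.78. B cell genes were highest in that library as well, and their part in the MHC class II levels was not tested. B2m, the light chain of MHC class I, fell too, at 961, 1154 and 828 CPM in tissue and 247, 239.9 and 232 CPM in monolayers (-2.03 ± 0.12).

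The interferon response element, GAAA, any 2 bases and GAAA, was searched in the same 250 bases. It was present in 10 of the 18 lower genes that had a promoter in the table, or 55.6%, and in 12 of 22 (54.5%) over all tested members, against 3.46% of all genes. The stretches of Isg15, at chr4:156200835-156200936, minus strand, and Ifit1 (log2 fold change -1.63 ± 0.28), at chr19:34640745-34640853, plus strand, are printed with the matches in capitals. Isg15 holds 3 overlapping matches from 78 bases before its start, and Ifit1 holds 2 on the other strand, the nearer 85 bases before its own.
Isg15 interferon elements: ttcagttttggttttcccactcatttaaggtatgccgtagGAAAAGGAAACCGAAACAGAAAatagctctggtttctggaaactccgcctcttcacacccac
Ifit1 interferon elements: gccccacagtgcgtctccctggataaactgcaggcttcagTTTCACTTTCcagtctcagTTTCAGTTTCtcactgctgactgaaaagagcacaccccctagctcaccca

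Epithelial defence fell as well, with 10 of 15 tested genes lower and 1 higher (median -2.15). Reg3b, a secreted antibacterial lectin, was at 3644, 3948 and 3363 CPM in tissue and 127, 114 and 116 CPM in monolayers (-4.94 ± 0.73), Dmbt1, a mucosal scavenger protein, at 2710.3, 2378 and 2321 CPM in tissue and 56.8, 55 and 36.2 CPM in monolayers (-5.65 ± 0.19), and Pigr, which carries IgA across the epithelium, at 5212, 5602 and 5016 CPM in tissue and 504, 502 and 501 CPM in monolayers (-3.39 ± 0.059). All 3 were low in every monolayer library. NF-kB targets and chemokines went both ways, 7 higher and 5 lower of 24. Cxcl16, a membrane-bound chemokine, was at 10.9, 12 and 14.4 CPM in tissue and 155, 159.6 and 165 CPM in monolayers (3.68 ± 0.16), Nos2 rose (3.30), and Ccl25, the chemokine that draws lymphocytes to the small intestine, was at 628, 565 and 510.5 CPM in tissue and 208, 209.8 and 211 CPM in monolayers (-1.44 ± 0.19). Of the 18 gasdermin and cell death genes, 9 were lower and 1 higher, the kinase Ripk3 (1.68 ± 0.077). With GC and length trends removed 3 were higher, and 2 without tissue library 1 or monolayer library 2.

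Signalling lists moved in mixed ways in cells given Wnt3a, R-spondin-1 and Noggin. Wnt targets and modulators had 4 higher and 5 lower of 21, with Cd44 at 16.7, 22.6 and 20.5 CPM in tissue and 82, 86.8 and 79.3 CPM in monolayers (2.05 ± 0.14) and Sp5, a direct Wnt target, at 22.4, 15.5 and 15.9 CPM in tissue and 5.72, 5.7 and 5.8 CPM in monolayers (-1.64 ± 0.20). Without tissue library 3 the Wnt list had 5 higher and 3 lower. BMP genes had 2 higher and 5 lower of 17. The inhibitory Smad6 was at 23.9, 23.4 and 17.8 CPM in tissue and 1.17, 0.856 and 1.13 CPM in monolayers (-4.37 ± 0.15) and the BMP target Id1 fell (-1.32 ± 0.076), while the ligand Bmp8b was at 2.89, 2.3 and 1.3 CPM in tissue and 60.7, 64 and 66.5 CPM in monolayers (4.90 ± 0.25). Notch pathway genes had 2 higher and 6 lower of 16, including the target Heyl (-4.23) and the receptor Notch1 (-1.08).

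Circadian clock genes had 3 higher and 8 lower of 19. The clock is a loop in which CLOCK and BMAL1 bind E-boxes and turn on their own repressors. Dbp, an output factor of the clock, was at 24, 14.8 and 12.1 CPM in tissue and 0.992, 1.06 and 1.5 CPM in monolayers (-3.84 ± 0.26), and Ciart, a repressor, at 1.01, 0.972 and 0.674 CPM in tissue and 5.79, 6.89 and 6.83 CPM in monolayers (2.88 ± 0.19). Both separated the groups fully, in opposite directions. The hour at which each library was collected is not in the sources used here, and its part was not tested. The E-box CACGTG was present in 5 of the 16 list members with a promoter, against 6.86% of all genes. Ciart has 3 in the stretch chr3:95882229-95882384, minus strand, from 116 to 44 bases before its start, which are in capitals.
Ciart E-boxes: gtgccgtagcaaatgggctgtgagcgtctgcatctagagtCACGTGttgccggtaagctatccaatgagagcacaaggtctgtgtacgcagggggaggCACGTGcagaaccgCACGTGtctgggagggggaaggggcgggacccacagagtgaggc

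Other letters were searched in the promoters of further lists, over the tested members with a promoter. TGACTCA, an AP-1 site, was in 0 of 19 immediate early and AP-1 genes and 0 of 17 integrin, laminin and matrix genes, against 5.16% of all genes. TGACNNNGC, an Nrf2 element, was in 5 of 15 Nrf2 targets against 11.5%, and a zinc finger factor's site, AGATAA, in 4 of 16 intestinal transcription factors against 11.4%. Among 19 mitosis genes 16 held CCAAT and 8 held TTTGAA, a cell cycle element found in 18.3% of all genes. The D-box TTATGTAA was in 1 of 16 clock genes against 0.977%.

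Of 28 factors that set intestinal identity 1 was higher, 5 were lower and 22 were not called, a share of falls near the 16.4% of all genes. Without the 2-fold limit 6 were higher and 13 lower, against 5679 higher and 5995 lower of all 19581 genes. Hnf4a was at 1103, 1221 and 1148 CPM in tissue and 1024, 1034 and 1068 CPM in monolayers (-0.15 ± 0.054, adjusted p = 0.0236). Maf, a leucine zipper factor, fell, at 216, 260.4 and 162 CPM in tissue and 16.4, 19.1 and 18.1 CPM in monolayers (-3.57 ± 0.29), and Foxa1, a forkhead factor, rose (2.45 ± 0.077). Genes often used as references were not all level. Of 16, 4 were higher and 2 lower, among them Gapdh, Pgk1 (1.53 ± 0.053) and B2m, whereas Eef1a1 (0.25) and Actb, at 2396, 2518 and 1967 CPM in tissue and 4144, 4226 and 4306 CPM in monolayers (0.88 ± 0.10), stayed within 2-fold. Actb was called higher (1.18) with GC and length trends removed, where 6 of the 16 were higher and 1 lower.

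The effect of culture in SI was set against that in LI by testing the difference in the same fit. In LI 7442 genes (38.0%) were called, and the difference between the regions was called for 3909 genes. The change was more positive in SI for 2242 of them (11.4% of genes tested) and more negative for 1667 (8.51%). Crypts for LI monolayers were released with collagenase and dispase before EDTA, so region and release cannot be told apart. For cholesterol synthesis and uptake the difference was called for 19 of 22 genes, all more positive in SI. Its median was 1.17 in SI and -0.86 in LI. For glycolysis and hypoxia 15 of 24 were more positive in SI (medians 1.19 and -0.11) and for fatty acid synthesis 10 of 15, with 1 less. Conjugating enzymes differed in the same direction for 17 of 22 genes and carboxylesterases for 9 of 10. The mitochondrially encoded protein genes were more negative in SI for 13 of 13. The share of counts in all 37 mitochondrial genes was 2.53%, 2.59% and 2.25% in LI tissue, below every SI tissue library. Brush border hydrolases were more negative in SI for 9 of 17 and more positive for 1 (medians -2.63 and -0.01). No gene of the DNA replication, mitosis or cytosolic ribosomal protein lists differed between the regions by 2-fold in edgeR's test, although 17 of 24, 12 of 24 and 33 of 37 had an unadjusted p under 0.05. DESeq2 called 1 gene of DNA replication and none of the other lists.

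**Figure D5:**
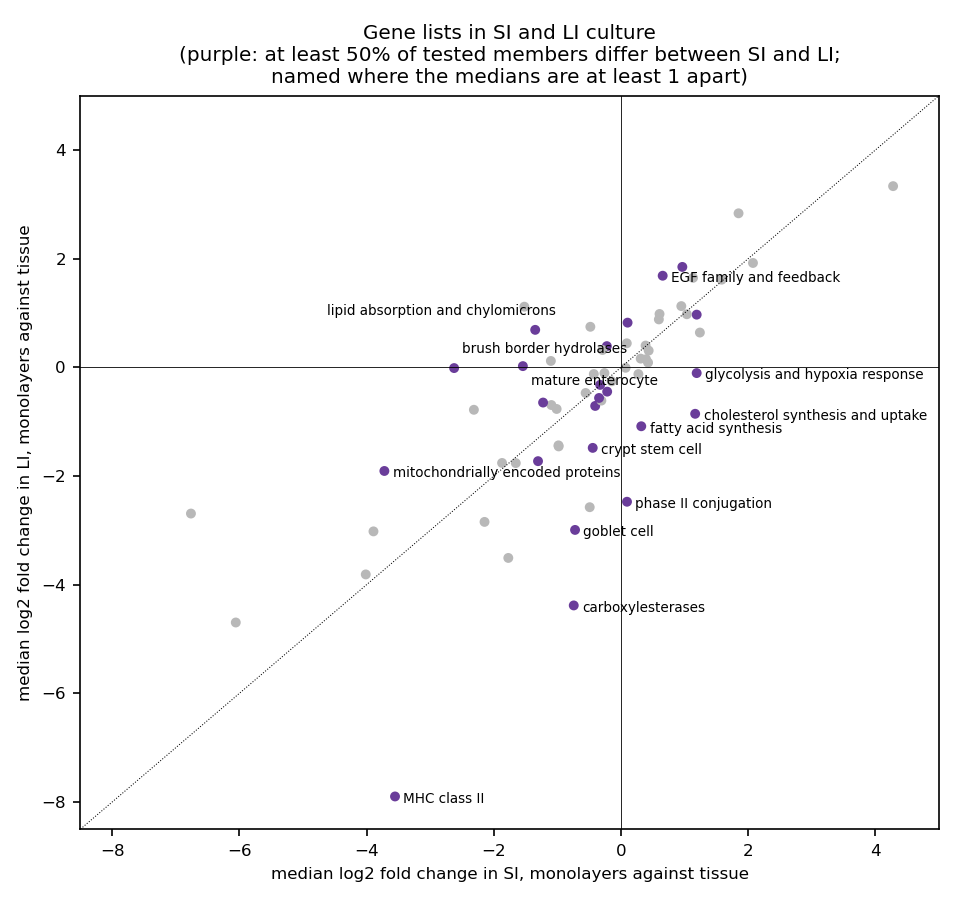
Median log2 fold change of monolayers against tissue for 64 gene lists, in SI (x axis) and LI (y axis), with the dotted line marking equal values. Lists in purple had at least 50% of their tested members past the threshold for a difference between SI and LI, and cholesterol synthesis, at 1.17 in SI and -0.86 in LI, lies on opposite sides of 0.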

How the data were processed

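RNA-seq of 12 libraries was read, of which the 6 SI libraries are described. The authors deposited whole-number counts per gene, made per the submitters' processing notes with STAR 2.7.9a and featureCounts 2.0.2 on GRCm38 and analysed there with DESeq2 3.13. Whether strand, multimapping reads or single mates were counted is not given in the sources used here. A deposited table of normalized values was not used. Gene symbols and positions were joined by versioned ID, for 55141 of 55487 genes, from the GENCODE annotation supplied here, an earlier release than that of the study.

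Genes were kept by edgeR's filterByExpr (minimum count 10, minimum total 15), which left 19581, and scaled by TMM. A robust quasi-likelihood model with 4 group means was fitted to all 12 libraries (R 4.3.3, edgeR 4.0.16, limma 3.58.1). Calls needed a Benjamini-Hochberg adjusted p under 0.05 and a fitted change of 2-fold or more either way. Difference in culture effect between SI and LI was a contrast of the same fit. On simulated data for the SI comparison with 19581 genes, 200 of 200 changed genes were recovered with 3 false calls. The simulation gave every gene the same dispersion and planted only changes past the 2-fold limit. It thus checked that the fit runs correctly and cannot give the rate of false or missed calls in these data. Tissue libraries were separate mice and monolayer libraries pooled wells, so p-values measure the spread between these. The study did not repeat its RNA sequencing. Whether the monolayer libraries came from separate cultures or donor mice is not given in the sources used here. Spread between cultures may thus be missing from the p-values. A gene with no count in a group was set to a floor of 3 counts over the group, and floors and intervals cover counting error only.

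The members and the 64 gene lists were chosen with earlier results of these data known. Named genes were the 10 largest called rises and falls at 10 CPM or more without overlap between groups, the called member of each list with the largest rise and fall at 1 CPM or more and the member with most counts, and genes the study measured. All other examples were chosen after their values were seen, and some genes of the rule are not reported here. Alternatives were DESeq2 1.42.0, other scalings and filters, GC and length trends removed, halved counts, mitochondrial genes left out, SI libraries alone, other fold limits, a replicate block and leaving out each library.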

Additional observations from a re-analysis of the deposited data

Results flagged for a closer look

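Of 192 genes named in the report, the change in culture differed between SI and LI for 95 (49.5%) in edgeR's quasi-likelihood test of the difference, with Benjamini-Hochberg adjusted p under 0.05 and a difference of at least 1 on the log2 scale, and for 3909 of all 19581 genes. Most of these genes were chosen after their values were seen. Values are given for those among the largest changes, those the study measured and those called in opposite directions in SI and LI. Differences are the SI change minus the LI change. Crypts for monolayers of the regions were released differently, and that was not tested apart from region.

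Stc2 rose in SI and fell in LI, a difference of 7.18 (adjusted p = 1.17e-11), from 0.402 ± 0.0846 to 24.9 ± 2.91 CPM in SI and from 27.3 ± 5.48 to 11.6 ± 0.402 CPM in LI (mean ± SD, n = 3 libraries a group). Anxa10 rose in SI, with a difference of 6.85 (adjusted p = 1.35e-06), and stayed at 1.02 ± 0.563 and 1.74 ± 0.104 CPM in LI. Areg rose more in SI (difference 2.50, adjusted p = 2.49e-08), as did Syt8 (difference 2.19, adjusted p = 8.92e-05). Slc9a4 (difference -3.08), Arhgap40 (difference -1.30) and Tjp1 (difference -1.15) rose in both regions and more in LI. Pla2g4c fell more in SI (difference -9.45, adjusted p = 0.000343), and its mean in LI tissue was 33.1 ± 9.1 CPM. Slc5a4a fell in SI (difference -7.58, adjusted p = 0.00394), and lay at 0.215 ± 0.304 CPM in LI tissue and 0.26 ± 0.179 CPM in LI monolayers. Chga was not called in SI and rose in LI by 2.31 (difference -2.45). Slc46a1 fell in SI and was not called in LI (difference -2.87), and Lrig1 was not called in SI and fell in LI, at -1.67 (difference 1.65).

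Besides Stc2, the calls were opposite for these genes. Cyp1a1, a target of the aryl hydrocarbon receptor, fell in SI and rose in LI (difference -12.44, adjusted p = 4.09e-07). It had 3 counts over the LI tissue libraries and 1994 over the LI monolayers, a ratio of 770 after TMM scaling, with an exact 95% interval of 263 to 3740 that covers counting error only, so the size of the difference is uncertain. Spp1 (difference -4.56) and Nts (difference -3.41) went the same way, but Nts lost its SI call without tissue library 1 or 2 or any monolayer library. The desaturases Scd1 (difference 7.86, adjusted p = 4.79e-08) and Scd2 (difference 7.78) rose in SI and fell in LI. So did Gstm1 (difference 6.73), Ces2a (difference 4.89), Nos2 (difference 4.66), Ido1 (difference 3.51) and Hmgcs1 (difference 2.36), but Ido1 lost its SI call without any single SI library other than tissue library 2.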

How the results depend on the processing

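No called gene of the SI comparison changed direction under any alternative run, and counts moved mainly with the threshold and the filter. Of 5110 called genes in the main analysis, 1902 higher and 3208 lower, the count became 11674 without a minimum fold change (5679 higher and 5995 lower) and 3286 when tested against a log2 fold change of 1 (1223 and 2063). It was 3140 with at least 10 counts in every library (1861 lower) and 1770 among genes averaging 10 CPM or more (721 and 1049), where fewer genes were tested and log2 fold changes of genes tested in both fits moved by a median of -0.11. DESeq2 called 1849 higher and 3561 lower, and removing GC and length trends gave 2547 and 2707. With 1 SI library left out, called genes ranged from 4889 to 5060, rises from 1869 to 1933 and falls from 2956 to 3163. The ratio of mitochondrial shares ranged from 9.88 to 14.2. For the difference between SI and LI, 3909 genes became 9069 without a minimum fold change, and 3674 to 3997 with 1 library left out.

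Replicate numbers were not taken to pair tissue with monolayers. Deviations from the group means correlated at r = -0.00359, 0.00659 and 0.0227 for same-numbered tissue and monolayer libraries. Other pairs ran from -0.0346 to 0.0266. Values this small over all genes cannot show whether same-numbered libraries shared a mouse. The study made SI and LI monolayers from the same mice, and whether same-numbered SI and LI libraries shared mice was not checked. With the replicate block 1868 genes were higher and 3149 lower, 5017 in all, and 4966 of the 5110 calls kept their direction. The difference between regions was then called for 3807 genes.

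Lists of few calls depended on single libraries. Without tissue library 1 the fibroblast list had 2 higher, and without tissue library 3 goblet cell falls went from 7 to 4. With 3 libraries a group, changes of low transcripts and of genes that spread widely between tissue libraries, such as Paneth cell genes, had wide errors. The source of that spread was not tested.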

Other observations

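Several of the transcripts lost in culture kept a trace that differed between monolayer libraries. These genes were picked after their values were seen. Gsdmc2 was at 1.59, 1.6 and 0.223 CPM and Gsdmc3 at 0.685, 0.611 and 0.0557 CPM in monolayer libraries 1, 2 and 3, with library 3 the lowest for both. Retnlb was at 2.8, 2.06 and 0.195 CPM and Igha at 0.89, 0.964 and 0.223 CPM, again lowest in library 3. Ang4 was at 234, 228 and 234 CPM and Gzma at 6.94, 6.41 and 6.38 CPM, with no such gap.

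Among the tissue libraries, 2 sets of genes lay apart in ways the labels do not give. Hspa1b was at 17.4, 10.3 and 4.82 CPM and Cyp2c29 at 37.2, 16.8 and 5.92 CPM in tissue libraries 1, 2 and 3, highest in library 1. Clps, pancreatic colipase, was at 79.1, 179 and 587 CPM and Reg4, a lectin of secretory cells, at 223, 360.1 and 1045 CPM, highest in library 3, as the Paneth cell genes were.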
